A study of Mus musculus with 8 samples.

Results

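STAT proteins are the transcription factors that carry cytokine signals to the nucleus. Of the 16418 genes in the normalized expression table, 6 were taken by their symbols as STAT family members (Stat2, Stat3, Stat4, Stat5a, Stat5b and Stat6), by a rule that itself uses no measured value. RNA was sequenced in bulk from naive T cells, sorted as CD3+CD4+CD25-CD44low/-CD62L+. The source label gives spleen and lymph node, while the extraction protocol gives splenic cells. The KO group is 4 libraries labelled as tamoxifen-treated (Sample_2907_KO, Sample_2908_KO, Sample_2909_KO and Sample_2910_KO), and the WT group is 4 libraries labelled WT in place of that treatment (Sample_2911_WT, Sample_2913_WT, Sample_2914_WT and Sample_2915_WT). Values per library are given in this order. Both groups carry the same genotype, Satb1fl/fl x CD4-CreERT2wt/+, in which tamoxifen switches on a Cre recombinase, named for CD4, that can excise loxP-flanked Satb1. The labels give tamoxifen for the KO group alone, so an effect of the drug and an effect of the intended deletion cannot be told apart. The labels give no animal ages and do not say whether a library is 1 mouse or several.

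A cytokine that binds its receptor activates the JAK kinases attached to the receptor tails, which phosphorylate STAT proteins. The phosphorylated STATs pair up, enter the nucleus and bind short DNA elements. Each member serves its own cytokines in T cells: STAT2 acts with IRF9 in the ISGF3 complex of the type I interferon response, STAT3 with IL-6, IL-10 and IL-21, STAT4 with IL-12, STAT5A and STAT5B with IL-2 and IL-7, and STAT6 with IL-4. Targets include feedback inhibitors such as the SOCS family and CISH. RNA levels say nothing of phosphorylation, the step by which STATs are switched on.

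The libraries held 7544075 to 9253620 counted reads in KO and 5227758 to 21998174 in WT. Satb1, the targeted gene, had 855, 1032, 840 and 913 CPM (reads of a gene scaled to the library's total, with TMM factors) in KO, against 987, 1015, 1046 and 1083 CPM in WT. The groups overlapped, and the log2 fold change of -0.18 (SE 0.059) missed the threshold (edgeR quasi-likelihood test, Benjamini-Hochberg adjusted p = 0.0582), so KO here names the tamoxifen group and does not state a loss of Satb1 RNA. Defining T cell markers were abundant in every library, with the sum of Cd3d, Cd3e, Cd3g, Trac, Cd4 and Cd28 at 2894 to 3159 CPM in KO, against 3038 to 3116 CPM in WT. Cd4 was the single one of these 6 called, at a log2 fold change of -0.19. Among markers of naive T cells, Il7r rose and Ccr7 and Tcf7 fell. Klrd1, an NK receptor gene, fell (15.2 ± 0.76 CPM in KO, against 21.8 ± 2.48 CPM in WT, SD, n = 4 each, edgeR adjusted p = 0.00837), while Ncr1 had 3 reads over the KO libraries and 4 over the WT libraries. Of the CD8 markers, Cd8a had 10 reads over the KO libraries and 18 over the WT libraries, and Cd8b1 had 12.1 ± 2.11 CPM in KO, against 16.1 ± 2.18 CPM in WT (SD, n = 4 each, log2 fold change -0.41, edgeR adjusted p = 0.113). Of the B cell markers, Cd79a had 84 reads over the KO libraries and 106 over the WT libraries, Cd79b had 49 reads in KO and 37 in WT, and Ms4a1 and Pax5 had at most 3 reads each over all KO libraries and 0 over all WT libraries. The part of such cells in the results was not tested. In bulk RNA, fewer cells of a type and less RNA per cell cannot be told apart.

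Of the 6 STAT genes, 3 rose in KO (Stat2, Stat3 and Stat6) and 0 fell at an adjusted p under 0.05, against 6.39% of all 11772 tested genes called in either direction, 3.98% called higher and 2.41% called lower. Stat2 rose 1.45-fold, whereas the increases in Stat3 (1.14-fold) and Stat6 (1.15-fold) were small. Stat4 was 1.13-fold in KO relative to WT and did not pass. Stat5a (0.975-fold) and Stat5b (0.988-fold) lay close to 1. At an unadjusted edgeR p under 0.05, 4 of the 6 were higher and 0 lower. That threshold passes far more genes than the adjusted one. An unadjusted edgeR p of 0.0454 (Socs7) was number 2042 of the 11772 tested genes, in either direction. DESeq2 and limma-voom each called 3 higher and 0 lower. The same 3 called genes were those whose KO libraries all lay above the WT libraries, as did 6.23% of all tested genes (11.1% did not overlap in either direction). Without Sample_2911_WT and Sample_2914_WT, the libraries of fewest and most reads, 2 of the 6 were called, Stat2 and Stat6. Without Sample_2907_KO, without Sample_2913_WT or with all libraries thinned to equal depth, Stat2 alone was called. The median log2 fold change of the 6 members was 0.18, beside a median of about 0 over all tested genes.

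**Figure D1:**
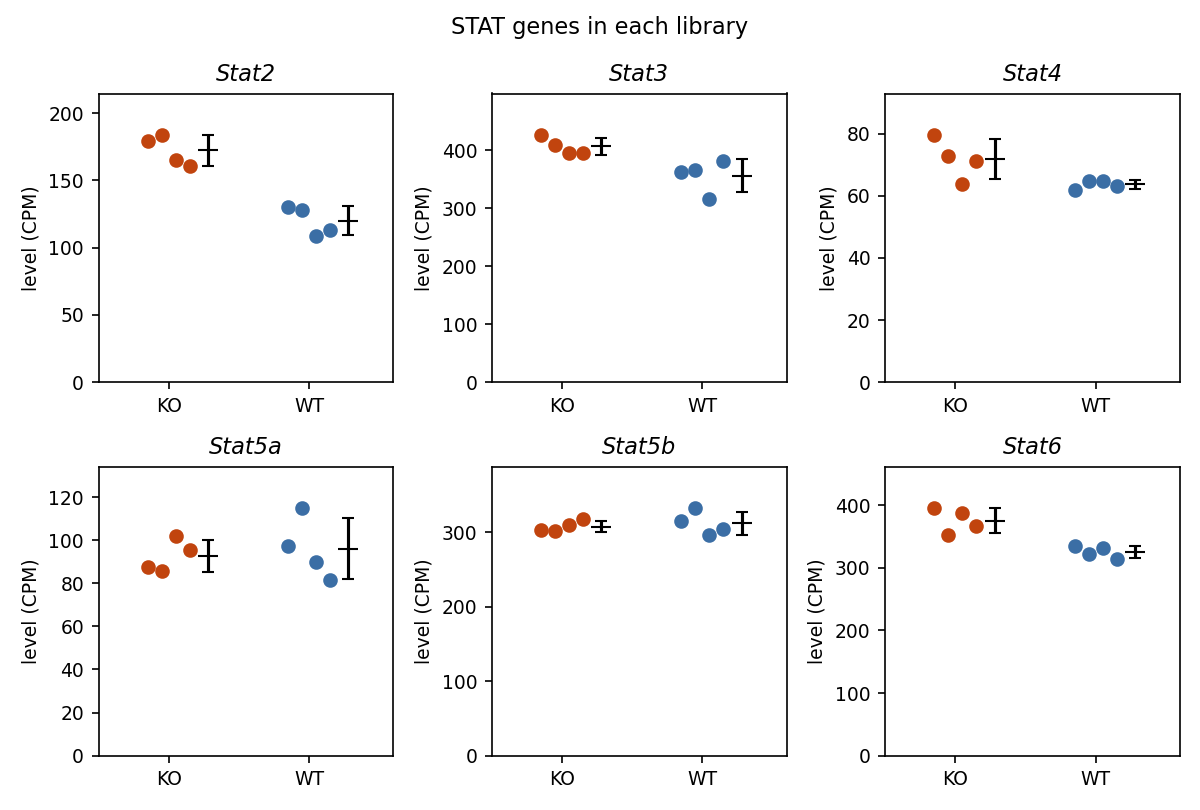
Level of each STAT gene in CPM (y axis, from 0) in the 4 KO and 4 WT libraries (points), with the mean and SD of each group at its right. The KO points lie wholly above the WT points for Stat2, Stat3 and Stat6, and the groups overlap for Stat4, Stat5a and Stat5b.

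Stat2 encodes the STAT that is committed to type I and type III interferon signalling. The gene (ENSMUSG00000040033.16) lies on mm10 chromosome 10, 128270559 to 128292849, plus strand. Its level was 179, 184, 165 and 160.3 CPM in KO, and 130.1, 128, 108 and 113 CPM in WT. The lowest KO library stood above the highest WT library. The means were 172 ± 11.2 CPM in KO, against 119.9 ± 10.8 CPM in WT (SD, n = 4 each). This is a log2 fold change of 0.53 (SE 0.066), with an edgeR adjusted p of 1.23e-06. By p-value it was number 65 of the 11772 tested genes. The approximate 95% interval of the fold, from the SE, was 1.32 to 1.58. Each value rests on 674 to 2434 reads.

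The Stat2 promoter is shown because it holds an element of the type that ISGF3 binds, the interferon-stimulated response element (ISRE). The RefSeq window (GRCm38.p6, chr10:128270248-128270547, plus strand) runs from 250 bases before RefSeq's start of the gene to 50 bases after. Capitals mark 2 motif matches, first an ISRE-type match (TTTCNNTTTC) that begins 222 bases before the start, then a STAT-type match with a spacer of 4 bases (TTCNNNNGAA).

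Stat2 promoter: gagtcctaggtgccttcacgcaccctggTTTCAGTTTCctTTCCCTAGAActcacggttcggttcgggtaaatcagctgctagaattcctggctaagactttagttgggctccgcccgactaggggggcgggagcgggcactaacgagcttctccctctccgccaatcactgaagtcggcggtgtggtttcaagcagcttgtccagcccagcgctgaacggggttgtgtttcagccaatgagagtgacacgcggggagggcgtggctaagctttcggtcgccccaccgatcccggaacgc

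The ISRE-type letters, read on both strands, were present in 3.44% of 32851 RefSeq promoter windows. The STAT-type letters with a spacer of 4 bases were present in 6.95% of windows, and those with a spacer of 3 bases (TTCNNNGAA) in 8.30%. Among the 9 windows of the 6 STAT genes, an ISRE-type match occurred in the Stat2 window and in the second of the Stat4 windows, and no window held the motif with a spacer of 3 bases. Genes of the interferon response were compared for the same letters. Of 34 textbook ISGF3 target genes, 24 had a promoter in the table and 12 of these (50%) held an ISRE-type match, against 3.99% of all 27025 genes with a promoter. These genes were listed as targets of ISGF3, the complex that binds this element, with earlier results of these data known. A higher share among them was therefore to be found in advance, and it is a description only. A match describes the sequence and does not show binding.

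The 10 bases of the Stat2 match are shown with 10 bases on either side. Beside it are matches from promoters of Ifit1 and Ifit3, antiviral genes of the interferon response, of Ifi208, and of the second Stat4 window. Ifi208 is a PYHIN family gene whose profile over the libraries was the second closest to that of Stat2. For Parp14, the gene of closest profile, no ISRE-type match was listed. Of the 34 ISGF3 targets, Parp14 among them, 24 had a promoter to search, so Parp14 may not have been searched. Capitals mark the match. The sites lie at chr10:128270266-128270295 (Stat2), chr19:34640794-34640823 (Ifit1), chr19:34583397-34583426 (Ifit3), chr1:173673597-173673626 (Ifi208) and chr1:52008133-52008162 (Stat4), all on the plus strand of GRCm38.p6.
Stat2: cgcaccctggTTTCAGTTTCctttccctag
Ifit1: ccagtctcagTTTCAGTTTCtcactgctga
Ifit3: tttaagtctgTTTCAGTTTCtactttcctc
Ifi208: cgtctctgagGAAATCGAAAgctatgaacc
Stat4: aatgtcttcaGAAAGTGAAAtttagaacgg
The matches printed for Stat2, Ifit1 and Ifit3 carried the same 10 letters, and those of Ifi208 and Stat4 matched in the other orientation. Ifit1 and Ifit3 each held another match with different letters (TTTCACTTTC), which is not printed. Some other ISGF3 targets also differed, such as Rsad2 (TTTCATTTTC) and Ddx58 (TTTCGATTTC). The shared letters thus depend on the sites chosen for display. Ifit1 rose (71.6 ± 17.9 CPM in KO, against 27.1 ± 4.96 CPM in WT, SD, n = 4 each, edgeR adjusted p = 0.0111), while Ifit3, at a log2 fold change of 1.73, missed the threshold (adjusted p = 0.0534). Ifit3b holds the same 30 letters as Ifit3 at the match printed, and reads of these close relatives may not be separable.

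The nearest tested genes on either side of Stat2 lay lower in KO. Timeless, which encodes a protein of the DNA replication fork, ends 17617 bases before Stat2 and fell (55.7 ± 5.85 CPM in KO, against 71.3 ± 2.71 CPM in WT, SD, n = 4 each, log2 fold change -0.36, edgeR adjusted p = 0.00284). Pan2, a subunit of a poly(A) nuclease, starts 10485 bases beyond it, and its log2 fold change was -0.16 (adjusted p = 0.137).

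Stat3 encodes the STAT that IL-6, IL-21 and IL-23 use in Th17 differentiation. The gene (ENSMUSG00000004040.16) lies on chromosome 11, 100885098 to 100939540, minus strand. Its level was 427, 410.1, 396 and 396 CPM in KO, and 362, 366, 316 and 382 CPM in WT. The groups did not overlap, but the lowest KO and the highest WT libraries were close together, and Sample_2914_WT stood lowest. The means were 407 ± 14.7 CPM in KO, against 356 ± 28.3 CPM in WT (SD, n = 4 each), with a log2 fold change of 0.19 (SE 0.058, edgeR adjusted p = 0.038). The call was lost without Sample_2907_KO (adjusted p = 0.147) or Sample_2910_KO (0.0592), and without Sample_2911_WT (0.0633), Sample_2913_WT (0.0706) or Sample_2914_WT (0.195). Stat3 and Stat5a overlap tail to tail by 72 bases on opposite strands, and the library kit does not keep strand, so reads from those bases cannot be assigned to either gene.

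Stat6 encodes the IL-4 and IL-13 responsive STAT of Th2 differentiation. The gene (ENSMUSG00000002147.18) lies on chromosome 10, 127642986 to 127660957, plus strand, 609601 bases from Stat2. Its level was 395, 353, 388 and 367 CPM in KO, and 335, 322, 331 and 314 CPM in WT. The groups did not overlap, and the KO libraries varied more than the WT libraries. The means were 376 ± 19.6 CPM in KO, against 326 ± 9.69 CPM in WT (SD, n = 4 each), with a log2 fold change of 0.21 (SE 0.054, edgeR adjusted p = 0.0152). The call was lost without Sample_2907_KO (adjusted p = 0.0779), Sample_2913_WT (0.059) or Sample_2915_WT (0.0744), and with all libraries thinned to equal depth (0.0773). Nab2, a corepressor of EGR transcription factors, overlaps the end of Stat6 by 40 bases on the opposite strand and also rose (58.4 ± 5.88 CPM in KO, against 46 ± 7.67 CPM in WT, SD, n = 4 each, adjusted p = 0.0254).

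Stat4 encodes the STAT through which IL-12 drives Th1 differentiation. The gene (ENSMUSG00000062939.11) lies on chromosome 1, 51987148 to 52107189, plus strand. Its level was 79.6, 72.9, 63.7 and 71.1 CPM in KO, and 61.8, 64.9, 64.6 and 63.2 CPM in WT. The KO libraries spread widely, with Sample_2909_KO inside the WT range, and the WT libraries lay close together. The means were 71.8 ± 6.57 CPM in KO, against 63.6 ± 1.44 CPM in WT (SD, n = 4 each), with a log2 fold change of 0.17 (SE 0.074, edgeR adjusted p = 0.195). The approximate 95% interval of the fold was 1.02 to 1.25 before any adjustment for the number of genes tested. Of the 75-base windows along the Stat4 transcript, 25.9% also occur in Gm28177, a noncoding gene that overlaps it on the same strand and to which 1 read in KO and 6 reads in WT were assigned.

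Stat5a and Stat5b encode near-identical proteins that transmit IL-2 and IL-7 signals. They lie head to head on chromosome 11, 8626 bases apart: Stat5b (ENSMUSG00000020919.11, 100780731 to 100850724, minus strand) and Stat5a (ENSMUSG00000004043.14, 100859351 to 100885169, plus strand). Their coding sequences were identical at 90.9% of 2291 aligned bases, whereas the other pairs of members reached 56.4% to 64.7%. The longest identical run is shown because a read from within it cannot be assigned to either gene. It is 324 bases long and spans exons 6 to 8 of both genes, coding bases 571 to 894 (GRCm38, chr11:100874023-100874983 in Stat5a, chr11:100797741-100798701 in Stat5b). Its start is printed with the base before it, which differs between the genes and is in capitals. The lines cover coding bases 570 to 719 (chr11:100874022-100874376 in Stat5a, plus strand, and chr11:100798348-100798702 in Stat5b, minus strand).
Stat5a: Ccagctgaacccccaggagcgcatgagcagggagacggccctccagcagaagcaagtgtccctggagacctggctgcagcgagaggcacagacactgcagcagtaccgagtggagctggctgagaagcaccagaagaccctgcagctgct
Stat5b: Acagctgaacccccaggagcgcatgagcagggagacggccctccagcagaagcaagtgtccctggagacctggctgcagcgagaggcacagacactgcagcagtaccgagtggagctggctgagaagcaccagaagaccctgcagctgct

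For contrast, the 75-base coding window with most differences (coding bases 90 to 164, exons 2 and 3, chr11:100861427-100861756 in Stat5a and chr11:100804991-100808434 in Stat5b) is shown from both genes, with the 26 differing bases in capitals.
Stat5a: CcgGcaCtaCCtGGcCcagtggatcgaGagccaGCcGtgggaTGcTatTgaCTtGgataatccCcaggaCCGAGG
Stat5b: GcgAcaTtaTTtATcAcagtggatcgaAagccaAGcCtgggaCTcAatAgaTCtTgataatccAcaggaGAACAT
Of all 75-base windows, the length of a read, 11.0% of the Stat5a transcript and 7.53% of the Stat5b transcript also occur in the other gene. The longest coding transcripts of Stat2, Stat3 and Stat6 shared no such window with another gene's transcript.

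Stat5a had 87.7, 85.5, 102 and 95.6 CPM in KO, and 97.5, 115, 89.9 and 81.5 CPM in WT. The WT libraries spanned the whole KO range. Stat5b had 303, 301, 309 and 318 CPM in KO, and 315, 332, 296 and 304 CPM in WT, again with the KO values inside the WT range. The log2 fold changes were -0.04 (SE 0.086, edgeR adjusted p = 0.886) for Stat5a and -0.02 (SE 0.053, adjusted p = 0.913) for Stat5b. Approximate 95% intervals of the fold ran from 0.868 to 1.10 for Stat5a and from 0.918 to 1.06 for Stat5b. Within a library, the ratio of Stat5a reads to Stat5b reads averaged 0.301 ± 0.020 in KO and 0.307 ± 0.032 in WT (SD, n = 4 each). The difference of the log2 ratio was -0.02 (exact two-sided permutation test over 70 relabellings, p = 0.829, where the smallest possible is 0.0286).

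**Figure D2:**
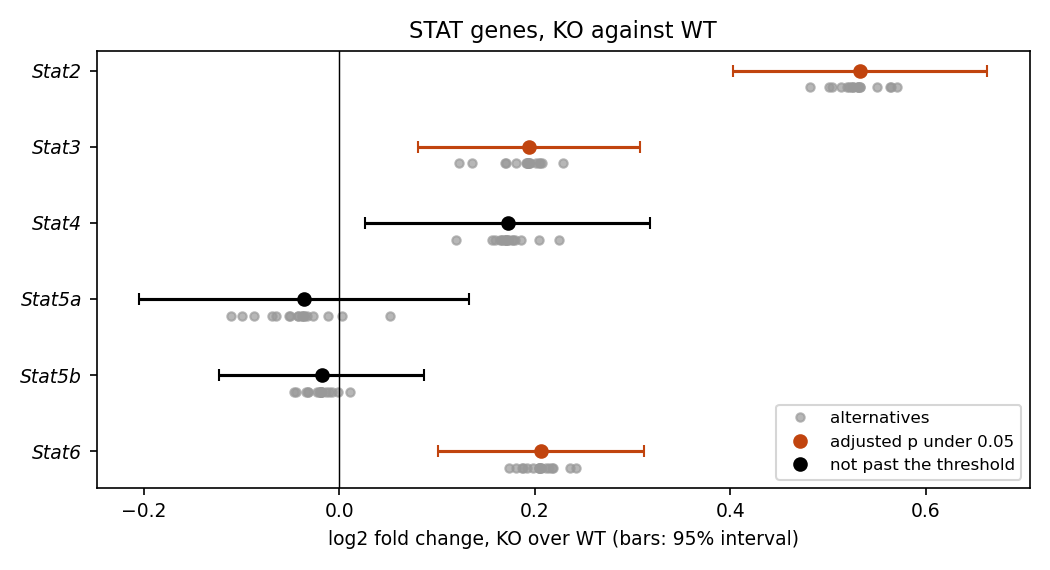
Log2 fold change of each STAT gene, KO over WT (x axis), with 95% interval from the SE, red where the adjusted p was under 0.05, and the values under the 18 alternative analyses as grey points below. Stat2 stands apart at 0.53, Stat3, Stat4 and Stat6 lie between 0.17 and 0.21, and Stat5a and Stat5b lie at about 0.

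Ratios between members within a library do not depend on library scaling. They were computed for all 15 pairs after the members' values had been seen. The ratio of Stat2 to each of the other members was higher in every KO library than in every WT library. Stat2 reads were 0.560 ± 0.049 of Stat5b reads in KO and 0.384 ± 0.021 in WT (SD, n = 4 each). They were 0.460 ± 0.043 of Stat6 reads in KO against 0.368 ± 0.032 in WT. Each of these 5 ratios gave the smallest p the exact permutation test allows (0.0286), which is 0.0714 adjusted over the 15 pairs and does not pass. The ratio of Stat5b to Stat6 also did not overlap (0.821 ± 0.048 in KO and 0.959 ± 0.058 in WT, SD, n = 4 each, exact permutation p = 0.0286, adjusted 0.0714). The Stat3 to Stat6 ratio was 1.09 ± 0.059 in KO and 1.10 ± 0.11 in WT.

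Levels of different genes were compared per kilobase of merged exons. In this measure Stat6 was highest (85.3 ± 4.45 CPM per kb in KO and 74 ± 2.20 in WT), followed by Stat5b (55.6 ± 1.36 in KO and 56.3 ± 2.82 in WT), Stat3 (42.8 ± 1.54 in KO and 37.4 ± 2.97 in WT), Stat2 (29.1 ± 1.89 in KO and 20.2 ± 1.83 in WT), Stat4 (18.5 ± 1.70 in KO and 16.4 ± 0.37 in WT) and Stat5a (13.0 ± 1.05 in KO and 13.4 ± 1.99 in WT; SD, n = 4 each). The order was the same in both groups. Neighbours in it did not overlap between libraries of a group, except Stat4 and Stat5a in WT (15.95 to 16.8 CPM per kb for Stat4, 11.4 to 16.1 for Stat5a). Stat6 stood above 96.2% of 10314 tested protein-coding genes in KO and above 95.7% in WT, and Stat2 above 84.8% in KO and 76.9% in WT. Of the summed level of the 6 genes, Stat2 made up 11.9% in KO and 9.29% in WT. The order depends on the length used. Per kilobase of the longest coding transcript, Stat3 came second (90.2 ± 3.26 in KO and 78.9 ± 6.27 in WT) ahead of Stat5b (59 ± 1.44 in KO and 59.9 ± 2.99 in WT), and Stat5a (25.7 ± 2.08 in KO and 26.6 ± 3.93 in WT) stood above Stat4 (24.1 ± 2.20 in KO and 21.3 ± 0.48 in WT). By that length, the libraries of neighbours in the order overlapped for Stat6 and Stat3 in both groups, for Stat5a and Stat4 in KO and for Stat2 and Stat5a in WT.

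**Figure D3:**
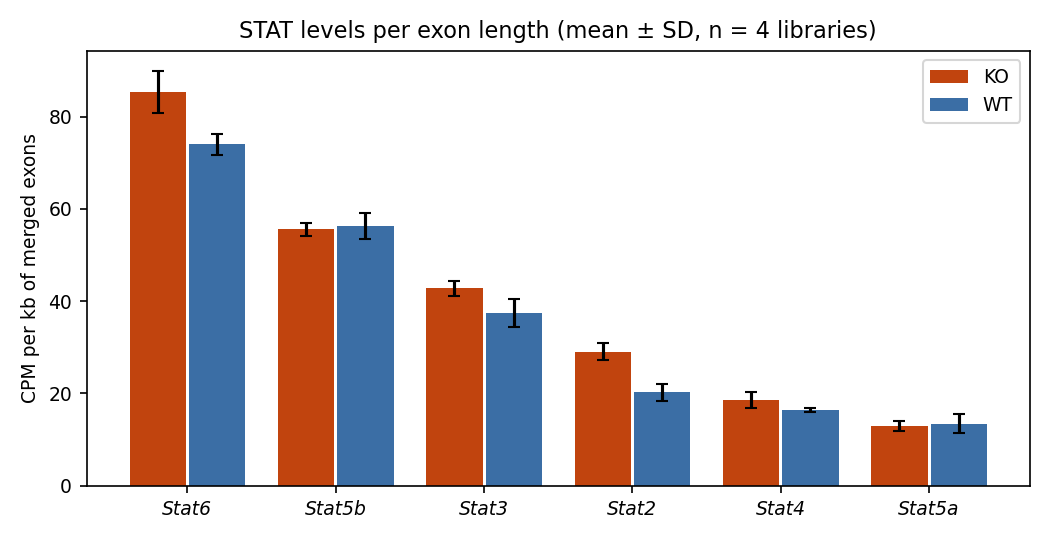
Mean level of each STAT gene per kilobase of merged exons (y axis, CPM per kb, from 0) in KO and WT, with SD over 4 libraries each. Stat6 is highest and Stat5a lowest in both groups, and Stat2 shows the widest gap between KO and WT relative to its level.

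Genes of similar profile were sought among 6833 protein-coding genes of at least 20 CPM (6832 for Stat6), by the root-mean-square difference of centred log2 CPM over the 8 libraries. Closest to Stat2 were Parp14, an ADP-ribosyltransferase induced by interferon (difference 0.049 on the log2 scale, median over the candidates 0.296), and Ifi208 (0.070). Both rose in KO, Parp14 to 349 ± 21.5 CPM in KO against 252 ± 19.2 CPM in WT and Ifi208 to 269 ± 19.4 CPM in KO against 194 ± 21.7 CPM in WT (SD, n = 4 each, edgeR adjusted p = 1.49e-06 and 2.71e-05). Closest to Stat3 were Rflnb, a filamin-binding protein gene (0.039), and Diaph2, a formin gene (0.050). Nf2, the merlin tumour suppressor gene (0.037), and Nfatc3, a calcium-regulated transcription factor gene (0.042), were closest to Stat4. Closest to Stat6 was Itpr1, an IP3 receptor gene (0.027). For Stat5a they were Cep63 (0.058) and Srsf9 (0.059), and for Stat5b Fam193b (0.030) and Cdan1 (0.031). Of the genes named here for Stat3, Stat4 and Stat6, Nfatc3 alone was called (adjusted p = 0.0306).

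The kinases upstream of the STATs did not pass the threshold, with 0 of 4 called by edgeR at an adjusted p under 0.05. Of all tested genes 6.39% were called, so 0 of 4 does not set the kinases apart. DESeq2 and limma-voom called 0. At an unadjusted edgeR p under 0.05, 1 of 4 passed, as did Socs7, number 2042 of all 11772 tested genes by p-value. The log2 fold change of Jak1 was -0.02 (adjusted p = 0.864), of Jak2 0.11 (0.308), of Jak3, the partner of the common gamma chain, 0.11 (0.358), and of Tyk2, a kinase of the type I interferon and IL-12 receptors, 0.16 (0.135). The KO libraries all lay above the WT libraries for Jak2, as for 6.23% of all tested genes. The gap was small, with the lowest KO library at 202.3 CPM and the highest WT library at 199.9 CPM. Jak2 means were 206 ± 3.82 CPM in KO, against 191 ± 13.5 CPM in WT (SD, n = 4 each).

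In a list of receptors counted as JAK-coupled, 6 of 23 tested genes rose and 0 fell (median log2 fold change 0.18), where 3.98% of all tested genes rose. The list includes Il18r1, an IL-1 family receptor that does not signal through JAK kinases and was not called (edgeR adjusted p = 0.405). Without Sample_2911_WT and Sample_2914_WT, 4 genes of the list were called. The genes that rose serve different STATs. Il10ra, which uses STAT3, rose to 121 ± 4.96 CPM in KO against 27.7 ± 1.99 CPM in WT (edgeR adjusted p = 7.23e-19). Ifngr1, the ligand-binding chain of the interferon gamma receptor, rose to 308 ± 19.6 CPM in KO against 113 ± 14.8 CPM in WT. Ifnar2, the chain of the type I interferon receptor to which STAT2 binds, rose to 73.3 ± 2.44 CPM in KO against 55.2 ± 3.98 CPM in WT (log2 fold change 0.41, adjusted p = 2.91e-04). Il2rb, which recruits STAT5, rose with a log2 fold change of 1.26, and Il4ra, which recruits STAT6, with 0.27. Il7r rose with 0.74 (adjusted p = 0.0245). Receptor chains that missed the threshold included Il6ra (0.16, adjusted p = 0.0838), Il6st (-0.06), Il21r (0.04) and Il27ra (-0.03).

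Among inhibitors of the pathway, 2 of 19 tested genes (10.5%) rose and 0 fell, where 3.98% of all tested genes rose (median log2 fold change 0.13). Cish, a STAT5-induced feedback inhibitor, rose to 41.3 ± 7.14 CPM in KO against 14.6 ± 2.54 CPM in WT (log2 fold change 1.45). Usp18, which blocks the type I interferon receptor at Ifnar2, rose to 55.7 ± 10.1 CPM in KO against 30.4 ± 6.30 CPM in WT (log2 fold change 0.93, edgeR adjusted p = 0.0087). Socs3, induced by STAT3, had 212 ± 18.5 CPM in KO, against 210.4 ± 41.5 CPM in WT (SD, n = 4 each). The PIAS genes and the phosphatase genes Ptpn1, Ptpn2, Ptpn6 and Ptpn11 did not pass. Of 16 tested cofactor and nuclear import genes, Irf9, the DNA-binding partner of STAT2, was the single one called (median log2 fold change of the list 0.01). That is 6.25% of the list, beside 3.98% of all tested genes called higher and 6.39% called in either direction. Irf9 rose to 237 ± 7.40 CPM in KO against 178 ± 12.8 CPM in WT (log2 fold change 0.42, SE 0.058, adjusted p = 7.35e-06).

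Textbook targets of each STAT were counted from lists written with earlier results of these data known, so the counts are a description, to be read beside the 3.98% of all tested genes called higher and the 6.39% called in either direction. Of 34 tested ISGF3 targets, which include Irf9 and Usp18, 31 rose and 0 fell, with a median log2 fold change of 0.90 and a range of 0.12 to 1.93. Without Sample_2911_WT and Sample_2914_WT, 26 were called, all higher in KO. The lowest adjusted p were those of Ifi27l2a (log2 fold change 0.97), Rtp4 (0.93), Oasl2 (1.39), Parp14 (0.47) and Oas1a (1.43). Myeloid and dendritic cell markers, 9 genes, summed to 34.8 to 44.7 CPM in KO, against 26.9 to 53.5 CPM in WT. Of these 9, 3 were tested and 0 called by edgeR, DESeq2 or limma-voom, with 0 at an unadjusted edgeR p under 0.05, and Flt3 and Siglech, which mark dendritic cells, had at most 3 reads in either group. Cst3 alone had 22.6 to 29.3 CPM in KO, against 23.0 to 25.5 CPM in WT. Lyz2 was uneven between libraries, at 4.55 to 12.2 CPM in KO and 0 to 25.3 CPM in WT. Csf1r had 24 reads in KO and 12 in WT, and Itgam had 39 in KO and 70 in WT. The part of myeloid and dendritic cells in the result was not tested.

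Of 16 tested STAT5 targets 4 (25%) rose and 0 fell, where 3.98% of all tested genes rose (median log2 fold change 0.21): Cish, Foxp3, Ccnd2 and Bcl2. Ccnd2, which encodes cyclin D2, rose to 857 ± 58.7 CPM in KO against 574 ± 32.4 CPM in WT, and the survival gene Bcl2 to 424 ± 35.4 CPM in KO against 313 ± 22.8 CPM in WT (SD, n = 4 each). Foxp3, the factor of regulatory T cells, rose to 93.4 ± 27.1 CPM in KO against 8.41 ± 1.20 CPM in WT. Other regulatory T cell markers did not pass, with Ikzf2 at 15.2 ± 3.10 CPM in KO, against 11.7 ± 1.64 CPM in WT, Ctla4 at 8.99 ± 1.86 against 7.90 ± 3.33 CPM, and Il2ra at 5.31 ± 0.93 against 4.01 ± 0.71 CPM. The STAT5 targets Myc (log2 fold change -0.15), Pim1 (0.36), Pim2 (0.01) and Mcl1 (0.12) also missed the threshold.

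Of 10 tested STAT6 targets 3 (30%) rose and 0 fell, where 3.98% of all tested genes rose (median 0.32): Gata3, the Th2 factor (log2 fold change 0.35), Il4ra (0.27) and the glucose transporter gene Slc2a3 (0.46). Without Sample_2911_WT and Sample_2914_WT, 1 of the STAT6 targets and 0 of the STAT4 targets were called. Of 7 tested STAT4 targets Furin, which encodes a proprotein convertase, was the single one called (14.3% of the list; log2 fold change 0.33, edgeR adjusted p = 0.00569, median 0.25), and Ifng had 0 reads in all 8 libraries. Of 15 tested STAT3 targets Irf4, a factor of several helper fates, was the single one called (log2 fold change 0.91, median 0.05). That is 6.67% of the list, close to the 6.39% of all tested genes called. Bcl3 (0.43, adjusted p = 0.147), Batf (0.38, 0.145) and Junb (-0.30, 0.616) missed the threshold. Some genes stand in more than 1 list. Over all these pathway and target lists, the genes lower in KO at an unadjusted edgeR p under 0.05 were Ptpn2 (log2 fold change -0.20) and Icos (-0.22), and DESeq2 and limma-voom called 0 lower.

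**Figure D4:**
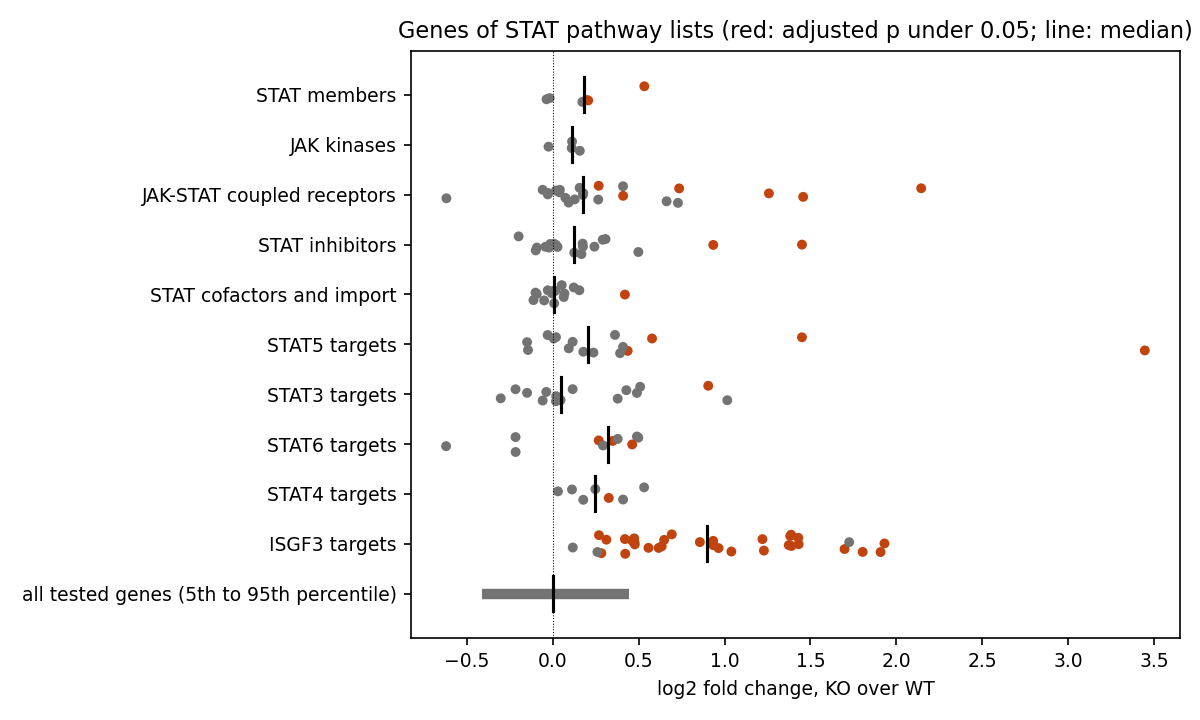
Log2 fold change, KO over WT (x axis), of each tested gene in lists of the STAT pathway, red where the adjusted p was under 0.05, with the list's median as a line and the 5th to 95th percentile of all tested genes as a bar. The ISGF3 targets lie wholly above 0 with a median of 0.90, while the medians of the other lists lie between 0.01 and 0.32.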

How the data were processed

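Per the labels' protocols, TruSeq v2 libraries were sequenced as single 75-base reads. Per the submitters' processing notes, build mm10 and the tools DESeq2 1.22.2, R 3.5.3, FastQC and CASAVA 1.8.2 were used. The counter was not given in the sources used here. The authors deposited whole-number read counts for 53465 genes and a normalized signal for 16418. In tests of the files, dividing a sample's counts by a constant gave its deposited signal, which covers genes of at least 10 reads. Positions came from GENCODE M21 (GRCm38, 99.8% of IDs), promoters from RefSeq (all 6 members matched).

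Counts were tested with edgeR 4.0.16 in R 4.3.3 (robust quasi-likelihood, TMM, filterByExpr), adjusted over all 11772 genes by Benjamini-Hochberg. CPM use TMM factors, and SE is derived from the log2 fold change and F. Steps were tested on simulated data. Alternatives were DESeq2 1.42.0, limma 3.58.1 and other scalings, filters, depths and samples. Within groups, all 12 pairs of libraries differed beyond sampling noise (chi-square per gene 2.67 to 11.26), so each counted as a replicate. No label names separate animals, so the p-values reflect spread among libraries that may be technical.

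The members were taken by symbol, but the family and the lists were proposed with earlier results of these data known. Named genes are the members, Satb1, the JAK kinases, up to 5 called genes of lowest adjusted p per list with others needed to describe it, neighbouring tested genes, and the 2 closest profiles per member. Some genes this rule takes are not reported here.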

Additional observations from a re-analysis of the deposited data

How the results depend on the processing

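Stat2 stayed past the threshold under all 18 alternatives (log2 fold change 0.48 to 0.57). Stat3 kept its direction and lost its call under 10 of 18: with library size only (0.18, adjusted p = 0.0508), limma-trend on the normalized values (0.19, 0.0693), a non-robust fit (0.19, 0.0745), thinned libraries (0.17, 0.104), without both Sample_2911_WT and Sample_2914_WT (0.12, 0.401), and with 5 of 8 single samples left out (0.14 to 0.23 over all 8). Stat6 lost its call under 4 of 18, with thinned libraries (0.17) and with 3 of 8 single samples left out (0.18 to 0.24 over all 8). Stat4 was not called under any of the 18 (adjusted p 0.072 to 0.519). The number of STAT genes called was 1 with thinned libraries and 1 to 3 with single samples left out. Stat5a (-0.11 to 0.052), Stat5b (-0.044 to 0.011) and the log2 Stat5a to Stat5b ratio (-0.086 to 0.036) turned sign with single samples left out, at values near 0. The cause of these changes was not tested, except that thinning and leaving out samples lower the number of reads. Without both of those WT libraries 481 genes were called in place of 752, and 562 to 836 with single samples left out. The pathway lists, 127 tested genes in all, had 45 called genes, where 6.39% of all tested genes were called. They had 36 without those WT libraries, 45 with RLE size factors and 50 with DESeq2. With no count filter, 148 of their genes were tested and 51 called. All of these were higher in KO. Over all genes, 481, 751, 769 and 895 were called in these settings, in the same order. The lists were written with earlier results known, so their counts are a description. No paired analysis was possible because the groups share no sample numbers. With 4 libraries a group, an exact permutation test cannot go below 0.0286.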

Other observations

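A few STAT target genes had too few reads for the test across all genes, and these 2 were picked out after their values were seen. Socs2, a STAT5-induced inhibitor, had 20 reads in KO and 2 in WT, with 0.110 to 0.865 CPM in KO and 0 to 0.193 CPM in WT (exact two-sided permutation p = 0.0571, higher than every WT library in 3 of 4 KO libraries). Ccr8, a chemokine receptor gene of Th2 and regulatory T cells, had 6 reads in KO and 40 in WT, with 0 to 0.324 CPM in KO and 0.360 to 1.16 CPM in WT. The groups did not overlap, and the exact permutation p of 0.0286 is the smallest the design allows and is not adjusted.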
